A study of Mus musculus with 6 samples.

Results

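Histone and DNA modifying enzymes were described in ILC2 from mouse lung, the innate lymphoid cells of group 2, which lack antigen receptors and answer tissue cytokines. The members were all listed genes of the Hdac, Sirt, Kdm, Kmt, Kat, Prmt, Dnmt, Tet and Ezh families whose symbol continues with a digit, which gave 66 of 23183 genes. By family they comprised 27 writers, whose families place a chemical group on histones or DNA, and 39 erasers, whose families remove one. Some members lack that activity themselves, among them the writers Dnmt3aos, Dnmt3l and Kmt2e. The families were picked by name and not by a cut on measured values, but with earlier results of these data known. Enzymes of the same kind under other names, such as Setd2 or Ep300, are companions here and not members.

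RNA was sequenced from 3 libraries of cells treated with DTA-1, an antibody that activates GITR (a TNF receptor family protein), and from 3 libraries of cells given an IgG2b isotype antibody as control. All cells were labelled wild-type primary lung ILC2 and were held for 24 h with IL-2, IL-7 and IL-33, each at 10 ng/ml, so that the control cells were activated as well. The labels give no age and do not say whether each library had its own animal or culture. The p-values therefore measure the spread between these libraries, which may be technical. The comparison addresses what GITR engagement does to transcripts of cytokine-activated ILC2.

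Histone acetyltransferases (KAT) and deacetylases (HDAC, and the NAD-dependent sirtuins) set the acetylation of histone tails, which accompanies open chromatin. Lysine methyltransferases (KMT, EZH) and demethylases (KDM) set methyl marks whose meaning depends on the position: H3K4 methylation marks promoters and enhancers, while H3K27 methylation by EZH2, the main catalytic subunit of Polycomb repressive complex 2, marks silenced genes. DNMT1 copies DNA methylation onto new strands during replication, DNMT3A and DNMT3B set it anew, and TET enzymes oxidize it. In lymphocytes these enzymes help to fix or release cytokine gene programmes, and DNMT1 and EZH2 are known to be abundant in dividing cells.

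Levels are in FPKM (fragments scaled by transcript length and library depth), the unit inferred for the deposited values, and may be compared between genes because they are scaled by length. The steps between low values corresponded to 18700000 to 20400000 fragments per library, and the values of a library summed to between 574195 and 606724 FPKM. In the library with the lowest value a tested member was covered by an estimated 23 to 15328 fragments (median 1187, at the longest annotated transcript), with 2 members, Kdm4d and Sirt4, under 100. All 10 ILC2 markers checked were tested, with summed levels of 2046 to 2297 FPKM with DTA-1 and 2492 to 2775 FPKM with the isotype. Of 44 markers of other cell types, 5 reached 1 FPKM in 3 libraries, namely Cd3g, Lck, Cd79b, Epcam and Pecam1. The summed ranges with DTA-1 and with the isotype were 11.7 to 12.2 and 15.7 to 17.2 FPKM for T cells, 2.93 to 6.46 and 3.36 to 7.23 FPKM for B cells, and 19.9 to 38.8 and 31.6 to 43.8 FPKM for endothelium and stroma. The same ranges were 1.14 to 2.07 and 2.85 to 4.44 FPKM for epithelium and 0.976 to 2.86 and 0.841 to 1.36 FPKM for ILC3. Natural killer cells reached 0.710 and 0.860 FPKM at most, and the myeloid and the mast cell and granulocyte lists summed to at most 0.321 FPKM in any library. Genes of the same list differed widely. Means over the 6 libraries were 4.49 FPKM for Cd79b, 2.66 FPKM for Epcam and 31.4 FPKM for Pecam1. By contrast Ms4a1, Lyz2, Cdh5 and Sftpc, from the lists of B cells, myeloid cells, endothelium and stroma, and epithelium, were at or under 0.0864 FPKM in every library.

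The promoters of the 3 members with the smallest p-values, Prmt2, Ezh2 and Dnmt1, and of Ezh1, the paralogue of Ezh2, are shown from RefSeq on GRCm38.p6, the assembly of mm10. Each window runs from 250 bases before to 50 bases after an annotated transcript start, 5′ to 3′ on the strand of the gene. Capitals mark matches to the letters of the E2F motif (TTTCCCGC, TTTCGCGC, TTTGCCGC or TTTGGCGC on either strand), a motif of factors that drive genes of the cell cycle. The windows lie at chr10:76237816-76238115 (Prmt2), chr6:47594981-47595280 (Ezh2), chr9:20952574-20952873 (Dnmt1, the third of 3 listed starts) and chr11:101226414-101226713 (Ezh1), all on the minus strand.
Prmt2: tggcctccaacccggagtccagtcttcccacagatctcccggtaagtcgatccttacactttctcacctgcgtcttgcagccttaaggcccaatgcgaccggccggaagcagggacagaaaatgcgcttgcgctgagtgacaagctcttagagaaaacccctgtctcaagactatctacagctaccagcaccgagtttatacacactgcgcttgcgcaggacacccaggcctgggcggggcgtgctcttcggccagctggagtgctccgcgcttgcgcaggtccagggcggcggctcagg
Ezh2: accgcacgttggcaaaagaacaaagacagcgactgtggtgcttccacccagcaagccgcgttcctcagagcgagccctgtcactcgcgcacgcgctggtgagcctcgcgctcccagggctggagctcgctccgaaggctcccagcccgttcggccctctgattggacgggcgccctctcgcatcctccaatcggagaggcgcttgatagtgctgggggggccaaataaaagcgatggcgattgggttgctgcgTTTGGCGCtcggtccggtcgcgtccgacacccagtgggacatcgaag
Dnmt1: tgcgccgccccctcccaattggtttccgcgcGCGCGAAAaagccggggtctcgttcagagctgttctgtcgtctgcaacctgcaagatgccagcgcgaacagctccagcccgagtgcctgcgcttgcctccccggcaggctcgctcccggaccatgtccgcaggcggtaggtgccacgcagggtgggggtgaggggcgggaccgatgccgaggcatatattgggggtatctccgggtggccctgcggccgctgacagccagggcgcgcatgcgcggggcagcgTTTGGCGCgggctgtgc
Ezh1: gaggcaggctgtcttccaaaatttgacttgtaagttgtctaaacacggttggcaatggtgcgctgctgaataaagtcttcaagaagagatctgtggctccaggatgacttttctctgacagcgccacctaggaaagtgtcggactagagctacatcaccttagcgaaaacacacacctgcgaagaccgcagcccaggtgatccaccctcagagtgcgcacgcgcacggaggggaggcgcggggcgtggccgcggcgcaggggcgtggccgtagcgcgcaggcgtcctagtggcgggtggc

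The Ezh2 window held the letters at position 4 from the start, and the Dnmt1 window held them at positions -219 and 34, while the windows of the other 2 Dnmt1 starts held none. The Ezh1 and Prmt2 windows held none either. Of the 48 tested members with a window, 4 held the letters (8.33%), the others being the acetyltransferase gene Kat2a and the mitochondrial sirtuin gene Sirt4. The letters were in 405 of 8076 tested genes with a window (5.01%) and in 744 of all 32851 windows (2.26%). Other motifs searched were also in a larger share of tested members than of tested genes. The shares were 22.9% and 12.3% for NF-kB (GGGRNNYYCC), 18.8% and 14% for CHR (TTTGAA), and 52.1% and 43.4% for CCAAT. Whether any of these shares differ was not tested. A match describes the letters and does not show that a factor binds there.

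Of the 66 members, 59 (89.4%) reached 1 FPKM in at least 3 libraries and were tested, against 45.3% of all listed genes. The tested members comprised 24 of 27 writers and 35 of 39 erasers. Prmt1, the main arginine methyltransferase of mammalian cells, was the most abundant at 281.5 ± 6.06 FPKM with DTA-1 and 234.0 ± 15.4 FPKM with the isotype (SD, n = 3 each, as throughout). Hdac1, a class I deacetylase of several corepressor complexes, followed at 121.6 ± 5.77 FPKM with DTA-1 and 120.0 ± 6.31 FPKM with the isotype. Ezh2, Hdac2, Dnmt1, Prmt5, Sirt2 and Kmt2a came next, with means over the 6 libraries between 54.3 and 75.3 FPKM. Their order depended on the group: Ezh2 and Dnmt1 stood above Hdac2 with the isotype and below it with DTA-1.

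The 7 members that were not tested were low in all libraries. Kdm5d, the Y-linked H3K4 demethylase gene, and Prmt8, an arginine methyltransferase gene of the brain, were listed at 0 in each library. Dnmt3l, a cofactor without catalytic activity, was listed above 0 only in isotype replicate 3, at 0.0506 FPKM. Hdac9 reached at most 0.0234 FPKM, Hdac11 0.201 FPKM, Tet1 0.165 FPKM and the non-coding RNA Dnmt3aos 0.265 FPKM. Dnmt3b, the second enzyme for new DNA methylation, was low but tested, at 2.65 ± 0.295 FPKM with DTA-1 and 2.497 ± 0.921 FPKM with the isotype.

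With DTA-1, 3 writers linked to replication, repression and acetylation lay lower (Ezh2, Dnmt1 and Kat2b), while 3 arginine methyltransferases (Prmt1, Prmt2 and Prmt7), Dnmt3a and 3 demethylases (Kdm6b, Kdm5b and Kdm4b) lay higher. None of them passed the test over all genes. Differences are given on the log2(FPKM + 1) scale as DTA-1 minus isotype with the SE of the fit, and tests are limma's with Benjamini-Hochberg adjustment over 10501 genes. At an adjusted p under 0.05, 0 members were higher and 0 lower, where 0.0286% of all tested genes were higher and 0.00952% lower, and the smallest adjusted p of a member was 0.178. At an unadjusted p under 0.05, 7 of 59 members were higher (11.9%) and 3 lower (5.08%), against 6.22% and 7.73% of all tested genes. In either direction that is 16.9% of the members, near the 14.0% of all tested genes. Values of both groups were fully separate for 16 members (11 higher and 5 lower, 27.1%), against 21.6% of all tested genes (11.2% higher and 10.5% lower). The split of 7 higher and 3 lower was 4 and 3 when libraries were scaled to equal totals. With equal totals 11.9% of members and 13.9% of all tested genes were at that threshold in either direction. Leaving out DTA-1 replicate 1 made the split 1 and 3 (6.78% of members, 9.71% of all tested genes), and leaving out DTA-1 replicate 2 made it 1 and 2 (5.08% and 9.05%). Leaving out isotype replicate 2 made it 4 and 3 (11.9% and 15.5%), and leaving out isotype replicate 3 made it 4 and 2 (10.2% and 15.7%). Without any one library the unadjusted p of Ezh2, Dnmt1 and Prmt2 stayed under 0.05.

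**Figure D1:**
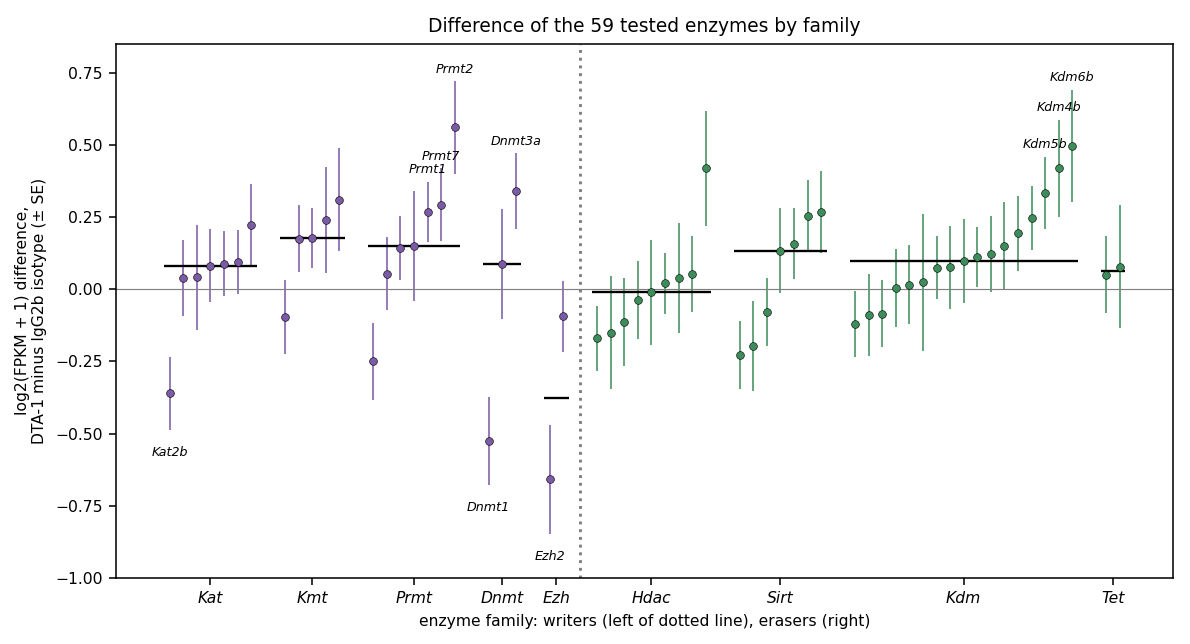
Differences of the 59 tested enzymes on the log2(FPKM + 1) scale, DTA-1 minus isotype, sorted within each family. Points are fitted differences, bars the SE, black lines the family medians, and names mark the 10 members with an unadjusted p under 0.05, of which Prmt2 (0.56) is the highest and Ezh2 (-0.66) the lowest.

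The median log2 difference was 0.09 over the 24 tested writers and 0.05 over the 35 tested erasers, against 0.01 over all tested genes, and 18 writers (75.0%) and 24 erasers (68.6%) lay above 0, against 52.6% of all tested genes. Without DTA-1 replicate 3 the order of the classes turned, with medians of 0.089 for writers and 0.098 for erasers. The class medians varied between libraries of a group by 0.024 and 0.026 (SD). Without isotype replicate 1, 34 of 59 members (57.6%) lay above 0, against 42 (71.2%) with all libraries. The ends of the range belonged to the writers: 7 of 24 writers (29.2%) had an unadjusted p under 0.05, 4 higher and 3 lower, against 3 of 35 erasers (8.57%), all higher. Over all tested genes the share was 14.0%, with 6.22% higher and 7.73% lower. Whether the classes differ was not tested. Summed over the listed genes of each class, writers amounted to 845, 831 and 828 FPKM in DTA-1 replicates 1, 2 and 3, against 817, 813 and 799 FPKM in isotype replicates 1, 2 and 3. Erasers amounted to 725, 713 and 698 FPKM with DTA-1, against 679, 714 and 679.9 FPKM with the isotype. The writer sums did not overlap between the groups, but as a share of each library's total they did, at 0.138% to 0.142% with DTA-1 and 0.137% to 0.141% with the isotype. The mean writer sums were 834.9 FPKM with DTA-1 and 809.4 FPKM with the isotype. Prmt1 alone, at 281.5 and 234.0 FPKM, differed by more than these sums did.

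Ezh2 (chromosome 6, 47530274 to 47595270 on GRCm38) measured 50.1, 57.8 and 64.8 FPKM in DTA-1 replicates 1, 2 and 3, against 76.7, 121.1 and 81.1 FPKM in isotype replicates 1, 2 and 3. Every DTA-1 library lay below every isotype library, and isotype replicate 2 stood far above the rest. The log2 difference was -0.66 ± 0.19 (limma, unadjusted p = 0.00782, adjusted p = 0.179), and between -0.78 and -0.45 with each library left out. Ezh1, the paralogue that maintains H3K27 methylation mainly in resting cells, measured 14.4, 12.3 and 12.7 FPKM with DTA-1, against 13.0, 15.5 and 13.8 FPKM with the isotype. Its groups overlapped, with a log2 difference of -0.09 ± 0.12. Ezh2 was therefore 4.43 ± 0.84 times as high as Ezh1 with DTA-1 and 6.53 ± 1.12 times as high with the isotype. With library quality weights, which give less weight to variable libraries, Ezh2 passed (limma, adjusted p = 0.0415) with a smaller log2 difference of -0.51. With these weights 475 of 10501 tested genes passed in all, against 4 without them.

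The enzymes that remove H3K27 methylation did not lie lower. Kdm6b, an inducible H3K27 demethylase known from inflammatory activation, measured 12.7, 9.09 and 7.33 FPKM in DTA-1 replicates 1, 2 and 3, against 7.32, 5.56 and 6.51 FPKM in isotype replicates 1, 2 and 3. DTA-1 replicate 1 was the highest, and DTA-1 replicate 3 was all but level with isotype replicate 1. The log2 difference was 0.50 ± 0.19 (limma, adjusted p = 0.304), and 0.30 without DTA-1 replicate 1. Its constitutive relative Kdm6a measured 17.2 ± 0.715 FPKM with DTA-1 and 16.3 ± 0.966 FPKM with the isotype. The ratio of Ezh2 to Kdm6b within a library was 3.95, 6.36 and 8.84 in DTA-1 replicates 1, 2 and 3, against 10.5, 21.8 and 12.5 in isotype replicates 1, 2 and 3. This pair was chosen after its values were seen, and the ratio is a description without a test.

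DNA methyltransferases lay in different directions. Dnmt1 (chromosome 9, 20907206 to 20959888) measured 56.0, 51.6 and 52.9 FPKM in DTA-1 replicates 1, 2 and 3, against 96.7, 71.8 and 66.9 FPKM in isotype replicates 1, 2 and 3. The DTA-1 libraries were close together and below all isotype libraries, of which replicate 1 was the highest. The log2 difference was -0.53 ± 0.15 (limma, unadjusted p = 0.00798, adjusted p = 0.179), and -0.37 without isotype replicate 1. With library quality weights it was -0.45 and Dnmt1 passed (limma, adjusted p = 0.0441), where 475 genes passed in all, against 4 without the weights. Dnmt3a, the enzyme for new methylation in lymphocytes, measured 13.6, 11.5 and 10.8 FPKM with DTA-1, against 9.82, 9.45 and 8.37 FPKM with the isotype, a log2 difference of 0.34 ± 0.13 (limma, adjusted p = 0.297). Its groups did not overlap either, in the opposite direction. The ratio of Dnmt1 to Dnmt3a was 4.51 ± 0.383 with DTA-1 and 8.48 ± 1.2 with the isotype, again a pair chosen after its values were seen. The tested TET genes, on the erasing side, showed no such difference. Tet2, which limits cytokine-driven growth in blood cells, measured 13.0, 20.4 and 20.4 FPKM with DTA-1 and 13.1, 20.5 and 17.0 FPKM with the isotype. Replicate 1 was the lowest library of both groups for Tet2, and for Tet3, which stood at 20.0 ± 2.08 FPKM with DTA-1 and 19.3 ± 2.17 FPKM with the isotype.

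**Figure D2:**
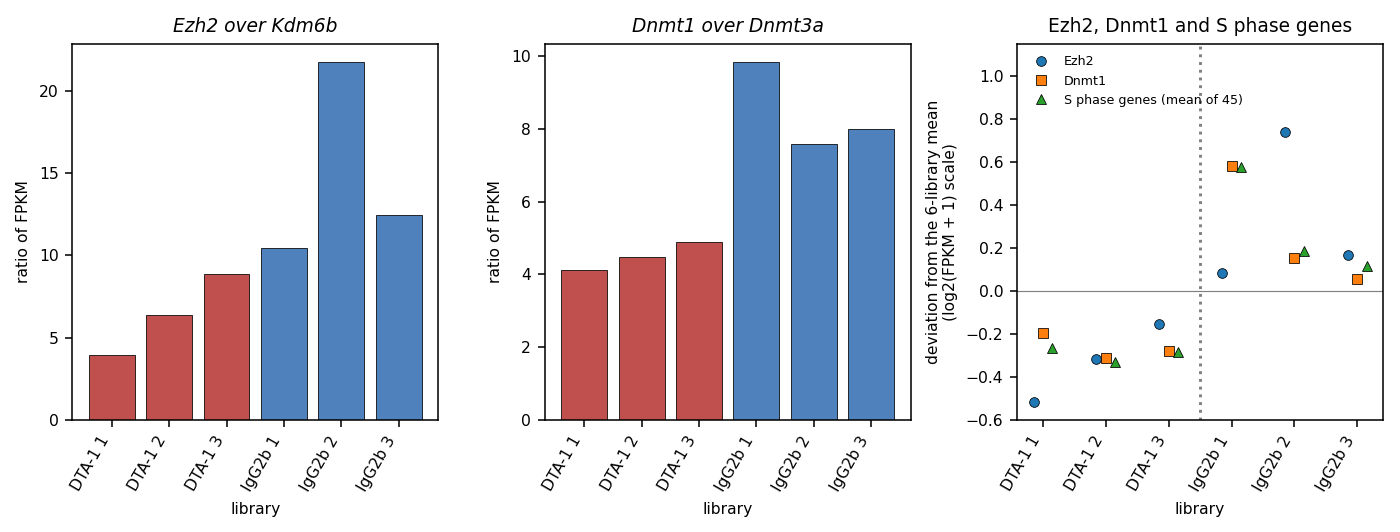
Ratios of FPKM within each library for Ezh2 over Kdm6b and Dnmt1 over Dnmt3a (bars, DTA-1 red, IgG2b isotype blue), and deviations from the mean of the 6 libraries on the log2(FPKM + 1) scale for Ezh2, Dnmt1 and the mean of 45 S phase genes. The pairs were chosen for genes that lie apart in opposite directions, which fixes that each ratio is lower in every DTA-1 library; the S phase genes and Dnmt1 are highest in isotype replicate 1 while Ezh2 is highest in isotype replicate 2.

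The levels of Ezh2 and Dnmt1 were set beside genes of DNA replication, because those lay lower with DTA-1 as well. Of 45 tested S phase genes, 38 were lower at an unadjusted p under 0.05 (84.4%, against 7.73% of all tested genes) and 0 higher (against 6.22%). Their median log2 difference was -0.62, and 0 passed over all genes (limma, smallest adjusted p = 0.0817). Pcna, the sliding clamp of DNA polymerases, measured 180.2 ± 6.07 FPKM with DTA-1 and 300.8 ± 36.5 FPKM with the isotype, and the helicase subunit gene Mcm5 48.9 ± 1.34 and 83.0 ± 17.1 FPKM. The mean of the S phase genes deviated from that of all libraries by -0.26, -0.33 and -0.28 in DTA-1 replicates 1, 2 and 3, against 0.58, 0.19 and 0.12 in isotype replicates 1, 2 and 3 (log2). Dnmt1 followed the same order among the isotype libraries, with replicate 1 the highest, whereas Ezh2 was highest in isotype replicate 2. The part of the S phase difference in the values of Ezh2 and Dnmt1 was not tested. In bulk RNA, fewer cells that express a gene and less RNA of it per cell cannot be told apart.

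Of 7 tested arginine methyltransferases, 6 lay above 0. Prmt1 (chromosome 7, 44976755 to 44986420) measured 288.4, 279.5 and 276.8 FPKM in DTA-1 replicates 1, 2 and 3, against 236.0, 217.7 and 248.3 FPKM in isotype replicates 1, 2 and 3, a log2 difference of 0.27 ± 0.10 (limma, adjusted p = 0.304). Prmt2 (chromosome 10, 76207226 to 76237865), a weakly active member also known as a coactivator of nuclear receptors, measured 16.3, 18.6 and 17.7 FPKM with DTA-1, against 9.23, 11.7 and 14.3 FPKM with the isotype. Its log2 difference of 0.56 ± 0.16 was the highest of all members (limma, unadjusted p = 0.00768, adjusted p = 0.178). Prmt7, which monomethylates arginine, measured 37.4, 38.7 and 36.9 FPKM with DTA-1, against 34.2, 26.2 and 31.7 FPKM with the isotype. The log2 difference of Prmt7 was 0.29, and 0.19 without isotype replicate 2. None of these 3 genes overlapped between the groups (42.9% of the 7 tested), where 11.2% of all tested genes were higher without overlap. They are also the family's genes with an unadjusted p under 0.05 in limma. The DTA-1 libraries were closer together than the isotype libraries for each of the 3 genes. Prmt5, the main enzyme for symmetric dimethylation, measured 65.5 ± 2.74 FPKM with DTA-1 and 59.4 ± 4.75 FPKM with the isotype, with overlap. Prmt3, which methylates a ribosomal protein, stood at 35.8 ± 2.5 and 34.6 ± 4.25 FPKM, and Prmt6 at 18.4 ± 2.81 and 16.7 ± 3.77 FPKM. Prmt10, whose current RefSeq symbol is Prmt9, was the single tested member of the family below 0, at 5.35 ± 0.818 FPKM with DTA-1 and 6.51 ± 0.334 FPKM with the isotype. Summed over the 8 listed genes, the family reached 461, 466 and 459 FPKM with DTA-1, against 394, 376 and 411 FPKM with the isotype. Most of these sums was Prmt1, at 281.5 of 462 FPKM with DTA-1 and 234.0 of 394 FPKM with the isotype on average.

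**Figure D3:**
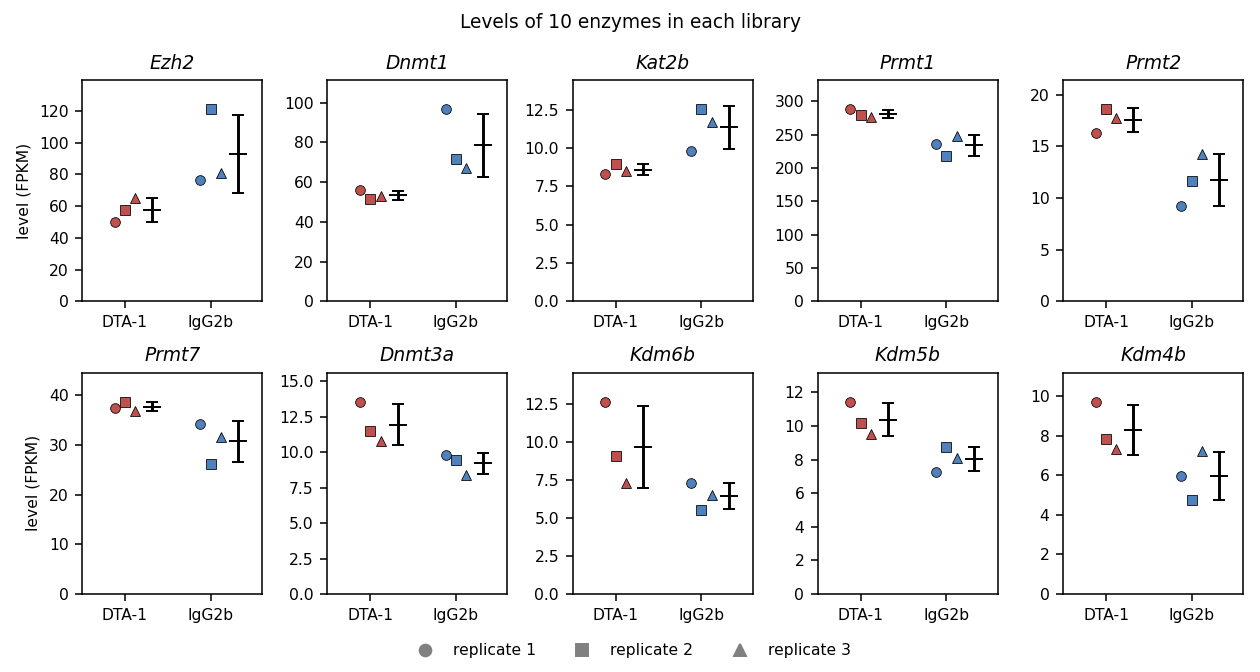
Levels in FPKM of the 10 members with an unadjusted p under 0.05 in each library, with DTA-1 left of the isotype in each panel. Symbols stand for replicate numbers, and the black marks are the mean and SD of 3 libraries; for each gene the 3 DTA-1 values lie on the same side of all isotype values.

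Most lysine acetyltransferases differed by less than the spread between libraries. Kat2b, which encodes PCAF, an acetyltransferase of SAGA-type complexes, measured 8.30, 8.96 and 8.49 FPKM with DTA-1, against 9.82, 12.5 and 11.7 FPKM with the isotype. All DTA-1 values lay below the isotype values, with a log2 difference of -0.36 ± 0.13 (limma, adjusted p = 0.255). Its close paralogue Kat2a, which encodes GCN5, measured 18.4, 14.96 and 15.9 FPKM with DTA-1, against 20.5, 12.4 and 15.8 FPKM with the isotype, a log2 difference of 0.04 ± 0.18. Kat6a, the most abundant member of the family, stood at 21.8 ± 0.736 FPKM with DTA-1 and 21.3 ± 3.25 FPKM with the isotype. The others, Kat5, Kat6b, Kat7 and Kat8, had log2 differences between 0.08 and 0.22.

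Deacetylases of the HDAC family differed little. Of 9 tested HDAC genes, 0 had an unadjusted p under 0.05, where 14.0% of all tested genes did. A count over so few genes does not set the family apart. Its median log2 difference was -0.01, and its median absolute log2 difference was 0.05, against 0.14 over all tested genes. Hdac1 measured 128.3, 118.2 and 118.3 FPKM with DTA-1, against 126.3, 119.9 and 113.7 FPKM with the isotype. Its log2 difference of 0.02 turned to -0.01 when libraries were scaled to equal totals. Hdac2, its partner in the same complexes, measured 64.2, 66.5 and 75.7 FPKM with DTA-1, against 65.8, 91.9 and 68.1 FPKM with the isotype, where replicate 2 stood alone. Hdac3, the catalytic subunit of the NCoR and SMRT complexes, was the single tested HDAC gene without overlap, at 28.2, 30.0 and 30.2 FPKM with DTA-1, against 35.8, 33.9 and 30.3 FPKM with the isotype. The margin was small, and the log2 difference was -0.17 ± 0.11 (limma, adjusted p = 0.564). Hdac10, known mainly as a polyamine deacetylase, had the largest difference of the family, 0.42 ± 0.20, with overlapping groups.

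Sirtuins likewise did not pass at an unadjusted p under 0.05 in any of 7 cases, where 14.0% of all tested genes did. Here too the genes are too few to set the family apart by this count. Sirt2, a mainly cytoplasmic deacetylase and the most abundant, measured 62.2, 64.0 and 58.0 FPKM with DTA-1, against 50.8, 45.7 and 58.3 FPKM with the isotype, and overlapped in 1 library. Sirt1, the best studied nuclear member, measured 11.05, 12.1 and 13.5 FPKM with DTA-1, against 12.4, 17.5 and 12.9 FPKM with the isotype. The mitochondrial deacetylase gene Sirt3 was lower without overlap, at 4.90 ± 0.195 FPKM with DTA-1 and 5.92 ± 0.443 FPKM with the isotype. Its exons share 418 bases with the opposite-strand gene Ric8a and 342 bases with Psmd13, which averaged 93.4 FPKM, and 42 bases of Sirt2 exons overlap Nfkbib on the opposite strand. Opposite-strand overlaps also cover 286 exon bases of Kdm6b (Kdm6bos), 247 of Prmt7 (Smpd3, 0.0955 FPKM), 174 of Ezh2, 378 of Kmt2a and 133 of Dnmt3a (Dnmt3aos). Whether strand was used in counting is not given in the sources used here, so these values carry an uncertain share of reads.

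The enzymes of H3K4 methylation were grouped after their values were seen. All 4 tested genes of the MLL family with methyltransferase activity, Kmt2a, Kmt2b, Kmt2c and Kmt2d, had log2 differences between 0.18 and 0.31. Of these, 0 had an unadjusted p under 0.05, where 14.0% of all tested genes did. Kmt2a measured 59.9, 57.2 and 55.9 FPKM with DTA-1, against 52.9, 49.8 and 49.9 FPKM with the isotype, without overlap. DTA-1 replicate 1 was the highest library for all 4, and their mean deviation from the 6-library mean was 0.28, 0.08 and -0.03 in DTA-1 replicates 1, 2 and 3, against 0.02, -0.24 and -0.12 in isotype replicates 1, 2 and 3 (log2). DTA-1 replicate 3 thus lay below isotype replicate 1. Kmt2e, a relative without that activity, lay on the other side, at 19.1 ± 1.06 FPKM with DTA-1 and 20.6 ± 2.85 FPKM with the isotype. The H3K4 methyltransferase genes Setd1a and Setd1b, companions and not members, had log2 differences of 0.001 ± 0.12 and 0.12 ± 0.23. All 5 tested H3K4 demethylase genes also lay above 0. Kdm5b measured 11.4, 10.2 and 9.54 FPKM with DTA-1, against 7.28, 8.73 and 8.08 FPKM with the isotype (log2 difference 0.33 ± 0.13, limma, adjusted p = 0.288). Kdm5c, its X-linked relative, measured 28.7, 26.2 and 24.6 FPKM with DTA-1, against 22.9, 21.9 and 21.6 FPKM with the isotype. Kdm1a, which encodes LSD1, measured 46.2, 35.8 and 36.7 FPKM with DTA-1, against 33.3, 35.5 and 34.0 FPKM with the isotype. These 3 of the 5 genes (60%) did not overlap between the groups, where 11.2% of all tested genes were higher without overlap. For each of the 3, DTA-1 replicate 1 was the highest library. Without it the log2 difference of Kdm1a was 0.08, against 0.19 with all libraries.

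Among demethylases of H3K9 and H3K36, Kdm4b measured 9.72, 7.82 and 7.31 FPKM with DTA-1, against 5.95, 4.76 and 7.21 FPKM with the isotype (log2 difference 0.42 ± 0.17, limma, adjusted p = 0.318). DTA-1 replicate 3 and isotype replicate 3 were almost level, and with library quality weights the log2 difference of Kdm4b was 0.20. Its relatives Kdm4a and Kdm4c had log2 differences of 0.10 ± 0.15 and 0.08 ± 0.14, with overlap. Kdm2a, an H3K36 demethylase, was narrowly without overlap at 26.7 ± 1.16 FPKM with DTA-1 and 24.7 ± 0.674 FPKM with the isotype. Kdm2b lay on the other side, at 29.2 ± 2.62 FPKM with DTA-1 and 31.7 ± 1.22 FPKM with the isotype. The rest, Kdm3a, Kdm3b, Kdm4d and Kdm7a, lay between -0.09 and 0.12 and overlapped.

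**Figure D4:**
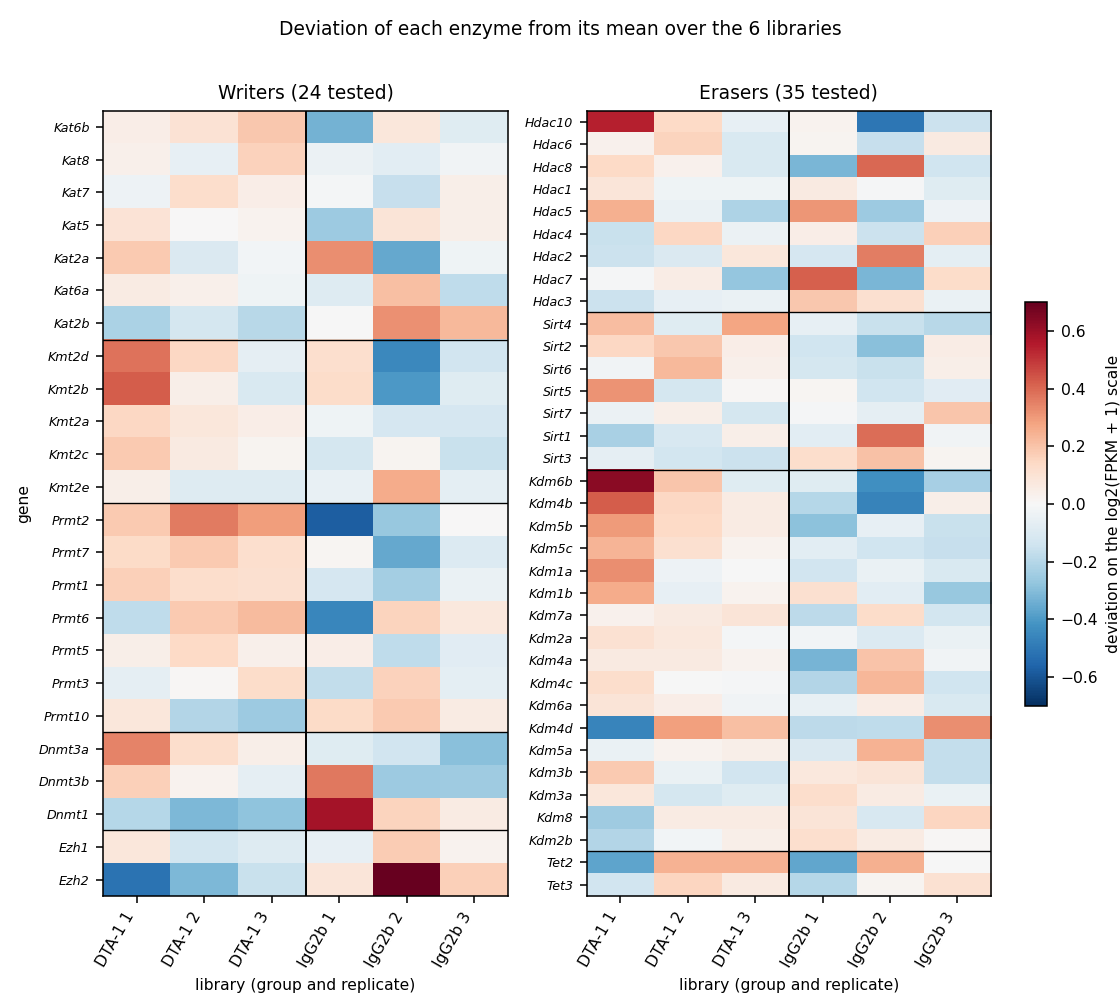
Deviation of each tested enzyme from its mean over the 6 libraries on the log2(FPKM + 1) scale (red above, blue below, colours end at 0.7), with 24 writers left and 35 erasers right, grouped by family. The DTA-1 columns stand left of the isotype columns; DTA-1 replicate 1 is the highest library for 19 members and isotype replicate 2 the lowest for 20.

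Members varied between libraries of a group about as other genes do, with a median SD of 0.15 on the log2 scale, against 0.18 over all tested genes. DTA-1 replicate 1 was the highest of the 6 libraries for 19 of 59 members (32.2%, against 25.3% of all tested genes), among them Kmt2b, Kmt2d, Kdm4b, Kdm6b and Hdac10. Isotype replicate 2 was the highest for 16 members, among them Ezh2, Hdac2, Sirt1 and Kdm5a, and the lowest for 20 (33.9%, against 28.1% of all tested genes), among them Kmt2b, Kmt2d, Kdm4b, Kdm6b and Hdac10. Those 5 genes were picked after their values were seen, as highest and lowest in the same libraries. Without DTA-1 replicate 1, the log2 difference of Kdm4b was 0.31 and that of Dnmt3a 0.25.

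Companion genes, enzymes under other names and partner subunits, were taken from a list of 112 symbols, of which 107 were in the files and 105 were tested. Of these, 0 passed over all genes in limma. At an unadjusted p under 0.05, 4 were higher (3.81%) and 7 lower (6.67%), against 6.22% and 7.73% of all tested genes, and the median log2 difference was 0.01. Both shares were under those of all tested genes, and the lower ones included partners of Ezh2 and Dnmt1. Uhrf1, which recruits DNMT1 to newly replicated DNA, measured 50.9, 49.1 and 48.2 FPKM with DTA-1, against 91.6, 65.1 and 74.3 FPKM with the isotype (log2 difference -0.62 ± 0.14, limma, adjusted p = 0.131). The ratio of Dnmt1 to Uhrf1 was 1.08 ± 0.0267 with DTA-1 and 1.02 ± 0.106 with the isotype, so both differed in like proportion. Of 9 tested genes of Polycomb repressive complex 2, 2 were lower at an unadjusted p under 0.05 (22.2%, against 7.73% of all tested genes). Rbbp7, a histone-binding subunit, stood at 154.3 ± 6.45 FPKM with DTA-1 and 213.8 ± 31.4 FPKM with the isotype. The accessory subunit gene Phf19 stood at 6.33 ± 0.801 and 10.7 ± 3.35 FPKM. The core subunit genes Suz12 (38.1 ± 3.35 FPKM with DTA-1, 50.2 ± 10.6 FPKM with the isotype) and Eed (59.5 ± 6.77 and 70.9 ± 15.6 FPKM) overlapped between the groups.

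Further lower companions at that threshold were Whsc1, an H3K36 methyltransferase gene, at 17.96 ± 1.34 FPKM with DTA-1 and 27.5 ± 6.57 FPKM with the isotype, and Hat1, which acetylates newly made histones, at 50.03 ± 3.48 and 70.2 ± 14.4 FPKM. Mbd4, a DNA glycosylase gene, and Dpy30, a subunit gene of the H3K4 methyltransferase complexes, had log2 differences of -0.59 ± 0.18 and -0.27 ± 0.11. The smallest p among the higher companions was that of Gadd45b, a stress-induced gene linked to DNA demethylation, at 75.6, 62.1 and 59.4 FPKM with DTA-1, against 35.3, 39.7 and 45.1 FPKM with the isotype (log2 difference 0.70 ± 0.14, limma, adjusted p = 0.102). The acetyltransferase gene Crebbp measured 16.0 ± 1.10 FPKM with DTA-1 and 12.5 ± 1.57 FPKM with the isotype, while its paralogue Ep300 stood at 26.2 ± 1.89 and 27.8 ± 2.04 FPKM. Smyd5 and the H3K79 methyltransferase gene Dot1l had log2 differences of 0.32 ± 0.12 and 0.39 ± 0.16. In the lists of acetyltransferase complexes (18 tested), deacetylase corepressor complexes (16 tested) and bromodomain readers (6 tested), 0 genes had an unadjusted p under 0.05. Over all tested genes the share was 14.0%. The histone-binding subunit genes Rbbp4 and Rbbp7 were counted under Polycomb repressive complex 2 only, so these counts depend on how genes were assigned to lists.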

How the data were processed

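Primary mouse lung ILC2 were profiled by directional RNA sequencing of Trizol-extracted RNA (1.3 ug per library), per the labels' protocols. Groups and replicate numbers came from the sample titles; the antibody numbers in the treatment tags run on from replicate to replicate, against the titles, and were ignored. The tables deposited by the authors, 1 for each library, pair gene symbols with values taken as FPKM, since the values are not whole numbers and step at low levels with the inverse of transcript length. Per the submitters' processing notes, TopHat and mm10 were used; for the quantifier, the annotation and the use of strand, the setting is not given in the sources used here.

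Genes that reached 1 FPKM in 3 or more libraries were fitted on log2(FPKM + 1) with limma 3.58.1 (R 4.3.3; trend and robust moderation, group as single term, 2-sided, Benjamini-Hochberg over all genes tested, threshold 0.05). The scale understates changes of low genes. The procedure was also run on simulated data with independent noise. Deviations that libraries have in common were not simulated, so that run does not check the p-values given here. Members, companion lists and tests were chosen with earlier results of these data known, and the groupings by histone mark after the values were seen. Members were named if their unadjusted p was under 0.05, their groups did not overlap, they led their family, or they stood on a fixed list of 11; others fill the account. Lengths and exon overlaps came from GENCODE M21, promoters and gene coordinates from RefSeq (GRCm38.p6; all 66 members matched, 1 by an older symbol). Plots used Python 3.11.15 and matplotlib 3.10.9. No 2 libraries held identical values. Depth estimates cover counting error only.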

Additional observations from a re-analysis of the deposited data

How the results depend on the processing

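With pseudocounts of 0.1 and 0.5, equal medians, a mean of at least 5 FPKM, any value above 0, no trend or robust moderation, and each library left out, 0 members passed over all genes. Library quality weights passed 2 members as lower, Ezh2 and Dnmt1, and 475 genes in all, against 4. The number of members higher at an unadjusted p under 0.05 was 4 with equal totals and 1 to 6 with each library left out, against 7, and the number lower was 2 to 3, against 3, while the share of all tested genes in either direction was 13.9% with equal totals and 9.05% to 15.7% with each library left out. The median log2 difference of writers (0.092) was 0.115 with a pseudocount of 0.1, 0.064 with equal totals, 0.13 with quality weights and 0.089 to 0.128 with each library left out. That of erasers (0.053) was 0.025 with equal totals, 0.10 with quality weights and 0.036 to 0.098 with each library left out. Leaving out members without histone or DNA activity of their own, or with a mainly mitochondrial or polyamine role, gave medians of 0.095 and 0.050. The cause was not tested.

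Members near 0 turned in sign, with ranges over the libraries left out of -0.019 to 0.057 for Hdac1, -0.20 to 0.035 for Hdac2, -0.039 to 0.16 for Kat6a, -0.083 to 0.28 for Tet2 and -0.037 to 0.13 for Tet3. Hdac1 was -0.013 with equal totals, -0.019 without DTA-1 replicate 1 and -0.018 without isotype replicate 3. Hdac2 was 0.035 without isotype replicate 2, and Kat6a -0.039 without isotype replicate 3. Tet2 was -0.023 without DTA-1 replicate 2, -0.024 without DTA-1 replicate 3 and -0.083 without isotype replicate 1. Tet3 was -0.012 without DTA-1 replicate 2 and -0.037 without isotype replicate 1.

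Same-numbered libraries did not all deviate together (correlations of 0.39, -0.10 and -0.13 for replicates 1, 2 and 3), so the numbers were not taken as pairs. Libraries of other numbers also deviated together (0.38 for DTA-1 replicate 2 with isotype replicate 3, 0.49 for DTA-1 replicate 3 with isotype replicate 2), and what libraries of different groups have in common is not given. With the replicate number as a block, 0 members passed (smallest adjusted p = 0.0819 in limma), 6 were higher and 3 lower at an unadjusted p under 0.05 (15.3% of members, 15% of all tested genes), and 185 genes passed in all, against 4. Depth limits Kdm4d most, at about 23 fragments in its lowest library.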
